A study of Mus musculus with 39 samples.

Results

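The genes described here build, cross-link, bind or cut the extracellular matrix of the lung, or mark the fibroblasts that make it. The list holds 41 genes, and each was taken from the array values through a probe set, the group of array probes for a transcript, that the platform annotation gives to that gene alone. Where several such probe sets were present, as for 29 members, the probe set of highest mean signal over all arrays was used. By that rule 39 of the 41 listed genes were found, out of 18193 genes named on the array. Both probe sets of Loxl2, a lysyl oxidase, also carry a second gene, and a further listed gene is not analysed here. All 39 found members passed the filter on dim probe sets, which left 13020 genes to test.

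Fibroblasts secrete fibrillar collagens as precursors, which are trimmed, assembled into fibrils and joined by lysyl oxidases, while small proteoglycans such as decorin and lumican coat the fibrils. Elastic fibres, built from elastin on a scaffold of microfibrils and fibulins, let the alveolar wall recoil, and type IV collagen forms the basement membranes beneath epithelium and endothelium. Metalloproteinases cut these proteins and tissue inhibitors restrain them, so the level of a matrix transcript is only an early step in how much matrix a lung holds.

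Lungs of female Crlj:CD1(ICR) mice were measured, each on its own Affymetrix array, in 39 animals. The animals ate a powdered diet without added compound (control), with the pyrethroid insecticide permethrin at 5000 or 10000 ppm, or with the antituberculosis drug isoniazid at 2500 ppm, which the labels name a positive control for lung tumours. Diets were fed for 7 days (age 11 weeks) or 14 days (age 12 weeks), which gave 8 groups of 5 animals, except for 4 in the permethrin 10000 ppm group at 14 days. Age, duration of feeding and day of collection therefore rise together and cannot be told apart. The comparisons ask whether either compound moves matrix genes, whether dose and time matter, and how far animals of a group differ. The labels do not say which part of the lung was taken, and in such bulk tissue fewer fibroblasts and less RNA per fibroblast cannot be told apart.

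Levels are log2 signal after quantile normalization, which gives every array the same distribution of values, so a difference of 1 is a doubling. Levels of different genes come from different probes and are not compared with each other. A gene is said to pass the threshold where its adjusted p in limma, a linear model across all 13020 genes, was at most 0.05. Array quality differed between the times. For the Gapdh control probe sets, the log2 ratio of 3' over 5' signal rises where RNA is broken, and it ran from -0.35 to 0.66 in the 20 arrays at 7 days and lay above 0.7 in 7 of the 19 arrays at 14 days (0.79 to 1.87). Mean signal of alveolar type 2 cell markers lay between 10.85 and 11.36 in every array. That of 30 lung fibroblast subtype markers lay between 7.78 and 8.22. The fibroblast marker signal averaged 8.02 at 7 days. At 14 days it averaged 7.94 in the arrays of low Gapdh ratio and 7.90 in those of high ratio.

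Few members passed the threshold for either compound, and the counts were highest between 7 and 14 days. Across the 8 groups, 4 of 39 members differed in limma's F-test, namely Lox, Adamts5, Spon2 and Pdgfra, against a background of 2.15% of all genes tested. With isoniazid, the mean of both times passed the threshold for Spon2 alone among the 39 members, against 0.392% of all genes. At 14 days against 7 days, averaged over the 4 diets, 24 of 39 members were lower and 0 were higher. Of all genes tested, 8.59% were called lower and 9.62% higher. The 3 patterns are taken in turn: the compounds, the time, and the variation between animals.

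Permethrin moved no member past the threshold at either dose. Against the control of the same time, 0 of 39 members passed at 5000 ppm for 7 days (background 0.0922% of all genes), 10000 ppm for 7 days (0.238%), 5000 ppm for 14 days (0.131%) and 10000 ppm for 14 days (0.215%). Unadjusted p was below 0.05 for 1, 3, 2 and 3 members in these comparisons, in the same order, where 1.99%, 3.15%, 5.22% and 6.04% of all genes tested had such a p. Averaged over both times, again 0 of 39 passed at 5000 ppm (background 0.223%) and at 10000 ppm (0.499%). Unadjusted p was then below 0.05 for 0 and 3 members, beside 3.73% and 6.52% of all genes. Between the doses 0 passed as well (background 0.00768%). The median log2 difference of the members was -0.01 at 5000 ppm and -0.04 at 10000 ppm over both times, beside -0.01 and 0.01 for all genes tested. Treatments share the controls of their time, so these comparisons are not independent of each other. For a member of median precision the SE of a difference at one time was 0.20. Shifts several times that size could still miss the threshold. With isoniazid for 7 days, Lox at 0.73 and Spon2 at -1.25 did not pass.

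**Figure D1:**
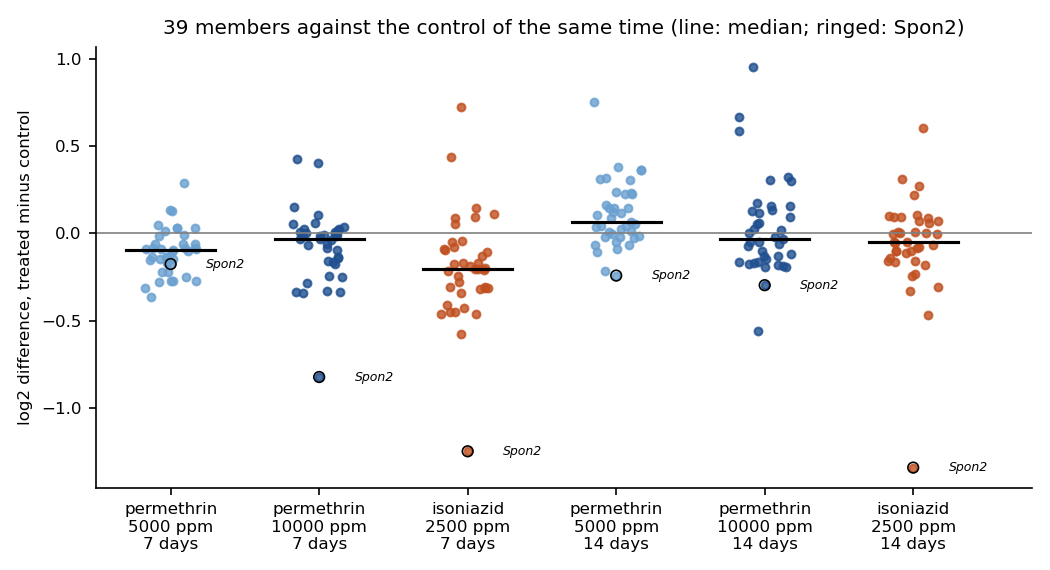
Each point is a member's log2 difference between treated animals and the control group of the same time, for 6 comparisons of 39 members; horizontal lines are medians over members and rings mark Spon2. The medians lie between -0.20 and 0.06, and Spon2 stands lowest in both isoniazid comparisons, at -1.25 and -1.35. It is also lowest at permethrin 10000 ppm for 7 days (-0.82) and at 5000 ppm for 14 days (-0.24).

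By role, the permethrin medians over both times were small. The 5 fibrillar collagens, the main tensile proteins of the interstitium, had a median of -0.01 at 5000 ppm and -0.06 at 10000 ppm. The 7 elastic fibre and microfibril genes had medians of 0.07 and -0.07. The 4 collagens of basement membranes and their vicinity had medians of -0.04 and 0.02. The members furthest from 0 at 10000 ppm were Spon2 (-0.56) and Lox (0.50), and neither passed.

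Lox encodes lysyl oxidase, which oxidizes lysines of collagen and elastin so that fibres can cross-link. At 7 days the control animals measured 8.32, 9.34, 8.40, 8.71 and 9.11, and the animals on permethrin 10000 ppm 9.29, 9.05, 9.38, 9.17 and 9.03. Animals on isoniazid for 7 days measured 9.78, 9.36, 10.06, 9.63 and 8.69. Of the isoniazid animals, 4 of 5 thus lay above the highest control, while of the permethrin animals 1 of 5 did.

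Lox at 14 days was 8.75, 8.60, 8.72, 7.91 and 8.85 in control, 8.60, 8.65, 8.84, 8.35 and 8.32 at permethrin 5000 ppm, and 8.61, 9.20, 9.60 and 9.21 at permethrin 10000 ppm. Isoniazid animals at 14 days measured 8.56, 8.69, 8.77, 8.55 and 7.88, inside or just below the control range. In the higher permethrin group 3 of 4 animals exceeded every control. The log2 difference from control was 0.73 (SE 0.21, adjusted p 0.339) for isoniazid at 7 days and 0.59 (SE 0.23, adjusted p 0.621) for permethrin 10000 ppm at 14 days. Its second probe set above the filter gave 0.31 for isoniazid over both times, beside 0.33 for the one used. At permethrin 5000 ppm for 7 days Lox measured 8.77, 9.02, 9.15, 9.01 and 9.38, within the control range but for its highest animal.

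Other members with the smallest p against control did not pass either. Loxl1, a lysyl oxidase tied to elastic fibres, was 1.21-fold lower at permethrin 5000 ppm for 7 days (log2 -0.28, SE 0.13, adjusted p 0.9999). Group means of Loxl1 were 9.64 in control, 9.36 and 9.35 at the lower and higher permethrin dose and 9.32 with isoniazid at 7 days, and 9.54, 9.59, 9.41 and 9.38 at 14 days. Lum, the fibril-binding proteoglycan lumican, differed by 0.76 (SE 0.34, adjusted p 0.923) at 5000 ppm and 0.96 (SE 0.37, adjusted p 0.621) at 10000 ppm for 14 days. The 14-day control animals were low for Lum, at 6.21, 5.21, 5.96, 5.88 and 5.45, and the animals on 10000 ppm spread widely, at 6.87, 8.01, 5.83 and 6.09. Mean fat and cardiac marker signal was also lower in these controls than in each treated diet, as given below. The part of these tissues in Lum was not tested. Eln, elastin itself, measured 7.80, 7.89, 7.50, 8.68 and 7.80 with isoniazid at 14 days against 8.18, 8.41, 8.58, 8.01 and 8.86 in control, a log2 difference of -0.47 (SE 0.21, adjusted p 0.810). In 4 of 5 isoniazid animals Eln lay below the lowest control. The remaining group means of Eln were 8.63, 8.38, 8.61 and 8.32 at 7 days in control, both permethrin doses and isoniazid, and 8.57 and 8.71 in the permethrin groups at 14 days.

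Spon2 was the 1 member that passed the threshold for a compound. It encodes spondin 2, a secreted matrix protein that has been tied to innate recognition of microbes. At 7 days the 5 control animals measured 7.11, 7.59, 7.43, 6.63 and 6.99, and the 5 isoniazid animals 6.35, 6.06, 5.90, 5.77 and 5.42. At 14 days the controls measured 7.18, 7.04, 7.35, 6.52 and 6.85, and the isoniazid animals 5.93, 6.11, 5.02, 6.21 and 4.95. At each time every isoniazid animal lay below every control of that time. Over both times Spon2 was 2.46-fold lower with isoniazid (log2 -1.30, SE 0.21, adjusted p 0.000912, limma). It was then 1 of 39 members called with isoniazid, against a background of 0.392% of genes in either direction and 0.169% lower. At single times 0 of 39 members passed with isoniazid for 7 days (background 0.0461%) or 14 days (0.0307%), with unadjusted p below 0.05 for 6 and 2 members, beside 6.52% and 6.03% of all genes. Spon2 itself had differences of -1.25 (adjusted p 0.120) and -1.35 (adjusted p 0.0799) there.

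Group means of Spon2 on permethrin lay between those of control and isoniazid at each time. At 7 days the lower dose gave 6.95, 7.32, 7.32, 6.83 and 6.45 and the higher dose 6.85, 6.74, 5.05, 6.45 and 6.55. At 14 days the lower dose gave 6.57, 7.49, 6.41, 6.05 and 7.21, and the higher dose 7.16, 6.47, 6.34 and 6.79. The lower dose overlapped the controls widely, and at the higher dose for 7 days 3 of 5 animals lay below the lowest control. Isoniazid against permethrin 10000 ppm was not called for any member (0 of 39, background 0.353%). Unadjusted p was below 0.05 for 3 members there, beside 5.75% of all genes. Spon2 differed by 0.74 between these diets (SE 0.21, adjusted p 0.193). Leaving out replicate 3 of permethrin 10000 ppm at 7 days, the animal at 5.05, brought 1 member past the threshold in that comparison. Without that same animal the isoniazid difference passed at single times too, with adjusted p 0.0280 at 7 days and 0.0186 at 14 days.

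**Figure D2:**
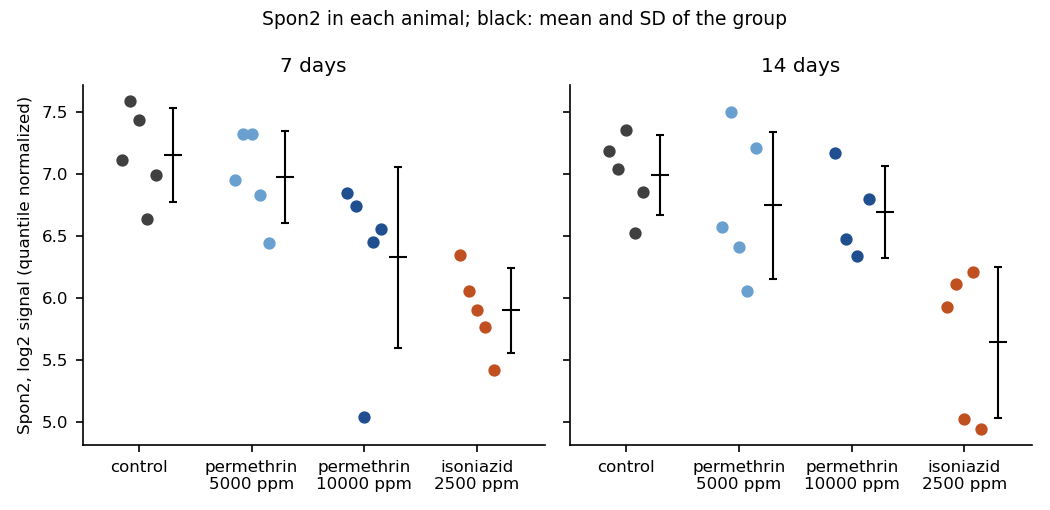
Spon2 log2 signal (vertical axis) in each of 39 animals at 7 days (left) and 14 days (right), by diet; black marks give group mean and SD. The isoniazid animals sit between 4.95 and 6.35, below every control animal of the same time, and 1 animal on permethrin 10000 ppm at 7 days is at 5.05.

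Spon2 was lower in animals with a higher clock difference, a value from circadian clock genes in the same samples. The clock difference was computed per animal as mean log2 signal of Per1, Per2, Per3, Dbp, Nr1d1, Nr1d2 and Tef minus that of Arntl and Npas2, genes chosen after the data were seen. Transcripts of the first group and of the second swing in roughly opposite phase over the day, and other clock genes measured, such as Clock and Cry1, were not used. The clock difference ran from -1.16 to 0.95 in controls at 7 days and from -0.63 to 1.18 at 14 days, and from 1.13 to 3.04 and from 0.90 to 3.99 with isoniazid. Its mean with isoniazid exceeded control by 2.17 at 7 days and by 1.80 at 14 days (adjusted p 0.381 for each, exact permutation test). Permethrin 10000 ppm at 7 days had a mean of 1.38 beside -0.12 in control (adjusted p 0.381, same test). Its animals ran from -0.08 to 2.37, and the highest was replicate 3, the animal with Spon2 at 5.05. At 14 days that dose ran from -0.45 to 1.14. The lower dose ran from -0.40 to 1.01 at 7 days and from -1.02 to 2.73 at 14 days. With group means removed, Spon2 and the clock difference had Pearson's r of -0.63 and Spearman's rho of -0.68 over 39 animals, given as a description without a test because both the clock genes and Spon2 were picked after their values were seen. Without the 2 animals furthest from the median clock difference r was -0.61.

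The sign of the relation was the same with and without isoniazid. Control and the permethrin doses were pooled for this and not taken separately. Among the 29 animals not given isoniazid r was -0.54, and among the 10 given isoniazid it was -0.88. The other members had r between -0.37 (Eln) and 0.27 (Col15a1), with a median of -0.06 over all 39. With the clock difference as a covariate the isoniazid difference of Spon2 over both times was -0.67 with adjusted p 0.562, and no member was called. Time of day at collection is not given in the labels used here, and what moved the clock genes was not tested. A second probe set of Spon2, of lower signal, had an isoniazid difference of -0.20, and with the mean of its probe sets the difference was -0.75 (adjusted p 0.00976).

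**Figure D3:**
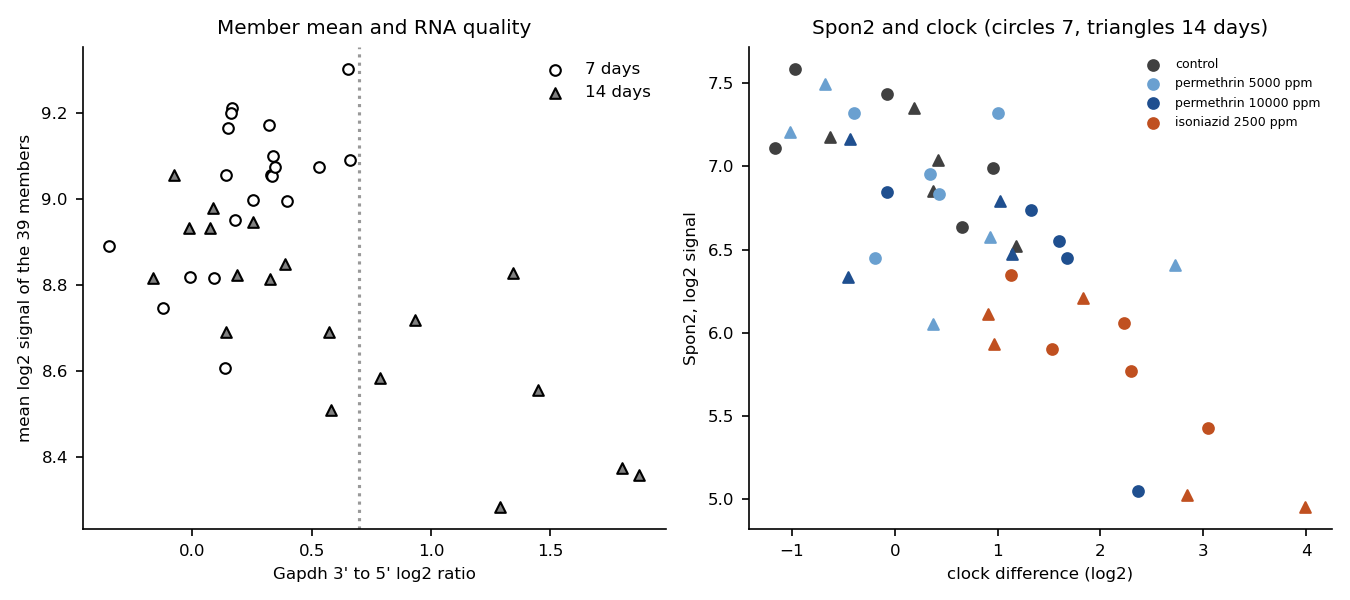
Left, mean log2 signal of the 39 members against the Gapdh 3' to 5' log2 ratio of the array, circles at 7 days and triangles at 14 days, with the limit of 0.7 dotted. Right, Spon2 log2 signal against the clock difference, coloured by diet; Spon2 is lower where the clock difference is higher, with r of -0.81 over 39 animals before group means are removed.

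For the other roles isoniazid gave smaller differences. Medians over both times were -0.21 for fibrillar collagens, -0.14 for collagens VI and XIV, -0.16 for elastic fibre genes and -0.01 for basement membrane collagens. Over all 39 members the median was -0.10, beside 0.01 for all genes tested. None of the genes on the 6 lists of related genes passed with isoniazid over both times (15 collagen-modifying enzymes, 11 other collagens, 35 other matrix proteins, 20 other proteases and inhibitors, 26 genes of the TGF-beta pathway, which drives matrix synthesis, and 30 fibroblast subtype markers). Marker genes of other tissues stood apart from 0 in their medians, with none called. The 13 fat markers had a median isoniazid difference of 0.71 and the 12 liver markers one of -0.998, with 0 called in either list. At 14 days mean fat marker signal exceeded control by 1.02, 1.45 and 0.85 at the lower and higher permethrin dose and with isoniazid. Cardiac marker signal exceeded it by 0.94, 0.97 and 0.95. At 7 days these differences were -0.08, 0.22 and 0.32 for fat and -0.19, -0.12 and -0.24 for cardiac markers. None passed (smallest adjusted p 0.381, exact permutation test). The part of these tissues in the values of the members was not tested.

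Whether a compound's effect changed between the times was tested directly. The change of effect from 7 to 14 days was called for 0 of 39 members at permethrin 5000 ppm (background 0%), permethrin 10000 ppm (0%) and isoniazid (0%). Unadjusted p was below 0.05 for 3, 2 and 3 members, beside 2.85%, 2.25% and 2.95% of all genes. The largest such change relative to its error was that of Adamts5 at 10000 ppm (0.64, SE 0.17, adjusted p 0.9998).

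Time brought the larger shift. At 14 days against 7 days, averaged over the 4 diets, 24 of 39 members (61.5%) were lower and 0 higher, against 18.2% of all genes called in either direction and 8.59% called lower. The median difference of the members was -0.31, beside 0.02 for all genes tested. The called members were 4 of 5 fibrillar collagens, 4 of 4 basement membrane collagens, 3 of 4 genes of collagens VI and XIV, 4 of 4 small leucine-rich proteoglycans, 4 of 6 adhesive and matricellular glycoproteins, 3 of 5 proteases and inhibitors, 1 of 2 lysyl oxidases and 1 of 2 fibroblast identity genes. Of the 7 elastic fibre and microfibril genes 0 passed, and the smallest adjusted p was 0.213 (Fbln1). Of 35 other probe sets of the members above the filter, 28 were lower at 14 days, with a median over all 35 of -0.22. The mean of a gene's probe sets, used below, takes in those under the filter too.

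**Figure D4:**
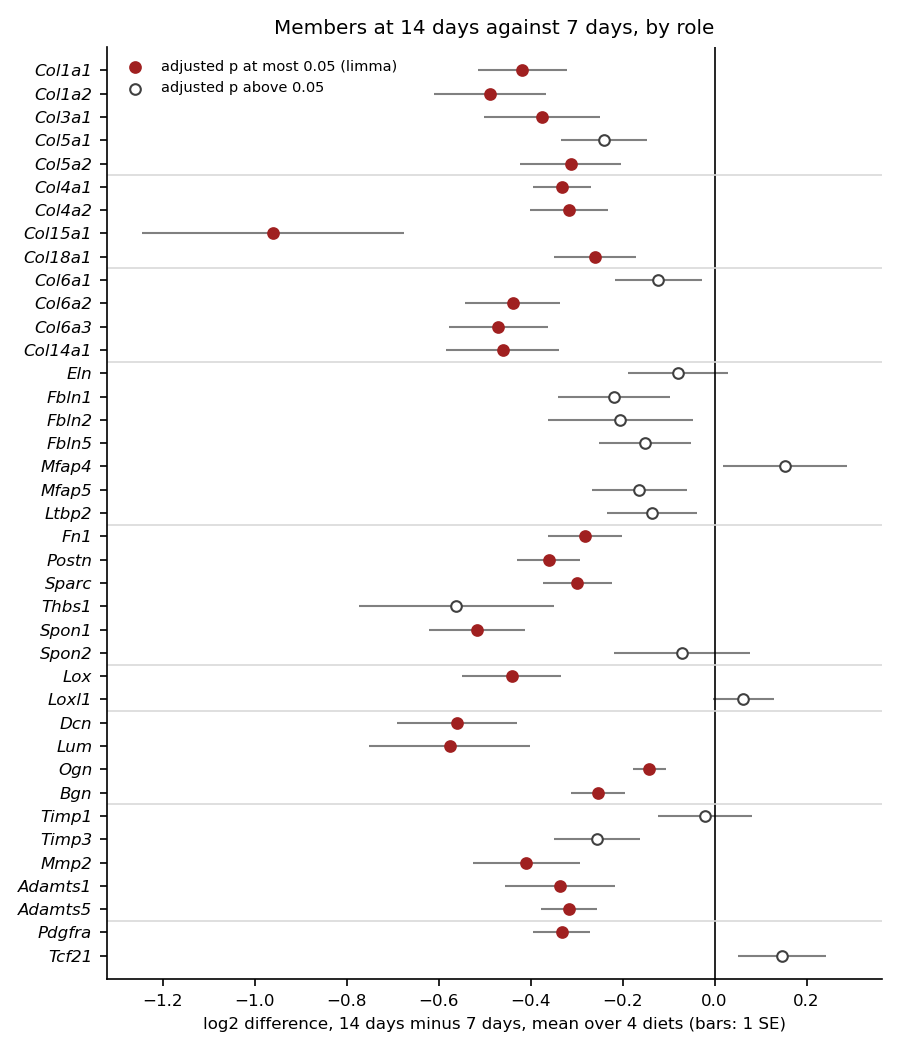
Log2 difference of each member between 14 and 7 days, mean over the 4 diets (horizontal axis; bars are 1 SE), grouped by role with grey lines. Filled points have adjusted p at most 0.05 in limma; 24 are filled, all left of 0, from -0.14 (Ogn) to -0.96 (Col15a1), and the elastic fibre genes from Eln to Ltbp2 are open.

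RNA quality and other tissue moved with time as well. Mean signal of the 39 members was 8.61 to 9.30 at 7 days, 8.51 to 9.06 in the 12 arrays at 14 days with a low Gapdh ratio, and 8.28 to 8.83 in the 7 with a high ratio. Within the 14-day groups the member mean and the ratio had r of -0.835 over 19 animals with group means removed (-0.774 without the 2 furthest, -0.736 in the 12 arrays of low ratio), and within the 7-day groups r was 0.533 over 20 animals. Without the 7 arrays of high ratio, 15 members were called (15% of all genes), of which 13 were among the 24, and the median was -0.19. With the ratio as a covariate 12 were called (8.65% of all genes), and with each array centred on its median in place of quantile normalization 15 (8.22%). Under all 15 alternatives tried, without counting single animals left out, 6 members kept the call: Col1a1, Col4a1, Col6a2, Col6a3, Postn and Spon1. The members called without the high-ratio arrays include Timp3 (-0.28, adjusted p 0.0145) and Tcf21, which was higher (0.28, adjusted p 0.0412).

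Markers of other cell types also differed at 14 days, where 8.59% of all genes tested were called lower and 9.62% higher. Cardiac muscle markers were lower for 9 of 21 tested (mean signal 7.29 to 9.22 at 7 days and 6.07 to 9.16 at 14 days), and fat markers for 4 of 13 (5.10 to 7.67 and 4.36 to 8.005). Cartilage markers passed for 2 of the 3 tested, both lower (means 3.97 to 6.56 and 3.72 to 6.35). Smooth muscle and pericyte markers were lower for 6 of 17 (7.40 to 7.98 and 7.00 to 7.85), and mesothelial markers for 1 of 10. Endothelial markers were lower for 4 of 15 (Cdh5, Ednrb, Kdr and Esam) and higher for 2 (Egfl7 and Eng), alveolar type 1 markers lower for 1 and higher for 2 of 10, and ciliated cell markers higher for 2 of 11 (Foxj1 and Cfap126). Single markers passed for alveolar type 2 cells (Sftpb, higher), macrophages (Fabp5, higher), neutrophils (Ltf, lower) and liver (Cyp2e1, lower). Of the club cell markers Hp was higher and Bpifa1 lower. With cardiac and liver signal as covariates 18 members were called (22.1% of all genes) and with fat signal 24 (22.7%). The part of cartilage, smooth muscle, mesothelium, endothelium and epithelium was not tested.

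Called separately within each diet, few members passed. In the control diet 1 of 39 did (Adamts5, background 0.115%), and 0 at permethrin 5000 ppm (background 0%), permethrin 10000 ppm (0%) and isoniazid (0.00768%). Unadjusted p was below 0.05 for 21, 7, 15 and 10 members in these diets, in the same order, beside 13.9%, 10.9%, 10.2% and 11.4% of all genes. The medians of the members were -0.38, -0.22, -0.32 and -0.26. The pooled comparison has 20 against 19 animals, and the single diets 5 against 5 or 4.

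The fibrillar collagens include type I collagen, the most abundant collagen of the lung interstitium, and type III and V collagen, which join it in mixed fibrils. Col1a2, the second chain of type I collagen, ran from 10.44 to 11.76 (median 11.24) in the 20 animals at 7 days and from 9.65 to 11.29 (median 10.90) in the 19 at 14 days. It was 1.40-fold lower (log2 -0.49, SE 0.12, adjusted p 0.00554), with 18 of 19 animals at 14 days below the 7-day median and 5 below the lowest 7-day animal. Its group means were 11.30, 11.24, 11.24 and 10.98 at 7 days and 10.68, 10.91, 10.64 and 10.57 at 14 days, always in the order control, permethrin 5000 ppm, permethrin 10000 ppm, isoniazid, which is kept below. Col1a1, the partner chain, went from a median of 6.91 to 6.59 (log2 -0.42, SE 0.10), with group means 7.20, 6.93, 6.86 and 6.89, then 6.65, 6.65, 6.59 and 6.32. Means of both chains of the type I molecule were lower at 14 days in each diet. The call of Col1a2 was lost without the high-ratio arrays (-0.28, adjusted p 0.0708), with the ratio as a covariate (-0.33, adjusted p 0.0631) and with the mean of its probe sets (-0.23, adjusted p 0.100). Its other probe sets were at -0.49 and, with signal near the filter, at 0.28. Col3a1 (type III) had means of 11.52, 11.39, 11.38 and 11.06, then 11.00, 11.15, 10.95 and 10.75 (log2 -0.38, SE 0.13), and Col5a2 (type V) 8.77, 8.67, 8.74 and 8.57, then 8.35, 8.36, 8.51 and 8.30 (log2 -0.31, SE 0.11). Col5a1 was at -0.24 (SE 0.09, adjusted p 0.0715). Calls of Col3a1 and Col5a2 were lost when single animals were left out, in 10 and 18 of 39 cases, and without the high-ratio arrays they were at -0.18 and -0.11. With median centring Col3a1 was at -0.26 (adjusted p 0.257).

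Col1a2, Col3a1 and Col6a3 varied together more closely than nearly all other pairs of members, as described further on, and the bases just upstream of their start sites are shown for that reason. They are the last 120 bases before each annotated start, from RefSeq on GRCm38.p6, read in the direction of the gene. Capitals mark the motif CCAAT, bound by the factor NF-Y and known from collagen promoters, searched as CCAAT or its reverse complement ATTGG.
Col1a2 (chr6:4505498-4505617, plus strand): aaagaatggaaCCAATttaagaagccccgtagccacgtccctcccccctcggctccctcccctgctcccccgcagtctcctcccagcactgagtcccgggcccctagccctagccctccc
Col3a1 (chr1:45311418-45311537, plus strand): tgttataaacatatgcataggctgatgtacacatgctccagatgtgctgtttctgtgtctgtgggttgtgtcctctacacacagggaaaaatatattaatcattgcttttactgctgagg
Col6a3 (chr1:90843972-90844091, minus strand): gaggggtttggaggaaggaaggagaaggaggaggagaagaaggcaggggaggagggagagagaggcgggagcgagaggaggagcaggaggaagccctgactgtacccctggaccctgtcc
The motif begins at base -109 of Col1a2 and is not in the printed bases of Col3a1 or Col6a3. The RefSeq table of start regions held 23 of the 39 members. Over the 250 bases upstream, 6 of these 23 (26.1%) hold CCAAT or ATTGG, namely Col1a2, Col4a1, Col4a2, Col18a1, Fbln5 and Timp1, beside 37.5% of the 27025 genes in the table. A match is a description of the letters and not a binding site.

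The basement membrane collagens and their neighbours were lower for all 4 members. Col4a1 and Col4a2, the chains of the ubiquitous type IV network, are transcribed in opposite directions from start sites 21 bases apart, and the bases between and including these starts are shown because the starts of both genes lie in it.
Col4a1 and Col4a2 (chr8:11312805-11312826, plus strand, GRCm38.p6): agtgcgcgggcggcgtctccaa
Col4a1 starts at its last base on the minus strand and Col4a2 at its first on the plus strand. Both annotated transcripts thus cover these 22 bases, on opposite strands. Col4a1 ran from 10.71 to 11.24 (median 10.99) at 7 days and from 10.35 to 11.10 (median 10.69) at 14 days, with 10 of 19 animals below the lowest 7-day animal. Its difference was -0.33 (SE 0.06, adjusted p 0.000660) and that of Col4a2 -0.32 (SE 0.08, adjusted p 0.00855). Group means were 11.04, 10.95, 11.03 and 10.96, then 10.67, 10.69, 10.63 and 10.66 for Col4a1, and 10.34, 10.25, 10.35 and 10.22, then 9.96, 9.94, 10.02 and 9.97 for Col4a2. Without the high-ratio arrays Col4a2 was at -0.23 (adjusted p 0.0684). Col15a1, a collagen at the border of basement membrane and interstitium, was near the dim end of the array. It went from 3.38 to 5.37 (median 4.38) to 0.91 to 4.91 (median 3.63), a difference of -0.96 (SE 0.29, adjusted p 0.0176). Its group means were 4.57, 4.42, 4.33 and 4.33, then 3.31, 3.29, 3.64 and 3.58, with 3 animals below 2 at 14 days. With cardiac and liver scores as covariates Col15a1 was at -0.65 (adjusted p 0.105). Col18a1, the precursor of endostatin, had means of 7.03, 6.80, 7.03 and 6.86, then 6.51, 6.83, 6.51 and 6.82 (log2 -0.26, SE 0.09). Its call was lost in 18 of 39 cases with an animal left out, and without the high-ratio arrays it was at -0.12.

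Collagen VI forms beaded filaments around cells, and collagen XIV sits on the surface of fibrils. Col6a3 ran from 8.84 to 10.21 (median 9.58) at 7 days and from 7.96 to 9.56 (median 9.15) at 14 days, with all 19 animals below the 7-day median. It was 1.39-fold lower (log2 -0.47, SE 0.11, adjusted p 0.00266). Col6a2 was likewise below the 7-day median in all 19 animals (log2 -0.44, SE 0.10). The third chain measured, Col6a1, was at -0.12 (SE 0.09, adjusted p 0.390). Whether Col6a1 differs from the other chains was not tested. Group means were 9.72, 9.41, 9.69 and 9.27, then 9.13, 9.06, 8.96 and 9.06 for Col6a3, and 9.92, 9.65, 9.76 and 9.61, then 9.28, 9.43, 9.13 and 9.35 for Col6a2. Col14a1 had 7.79, 7.78, 7.78 and 7.45, then 7.13, 7.44, 7.25 and 7.14 (log2 -0.46, SE 0.12), but without the high-ratio arrays it was at -0.23 (adjusted p 0.151) and with the ratio as a covariate adjusted p was 0.0689. Against control at 7 days, Col6a3 was among the members of smallest p at permethrin 5000 ppm, at -0.32 (SE 0.21, adjusted p 0.9999).

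The small leucine-rich proteoglycans bind collagen fibrils and growth factors. Dcn, decorin, ran from 9.29 to 10.98 (median 10.41) at 7 days and from 8.90 to 10.42 (median 9.83) at 14 days (log2 -0.56, SE 0.13, adjusted p 0.00333). Lum went from a median of 6.86 to 6.10 (log2 -0.58, SE 0.17, adjusted p 0.0199), and in control animals alone it was at -1.41 (SE 0.34, adjusted p 0.0698). Bgn, biglycan, had a median of 11.79 and then 11.64 (log2 -0.25, SE 0.06). Without the high-ratio arrays Dcn was at -0.55 (adjusted p 0.0154) and Lum at -0.31 (adjusted p 0.266). With the mean of its probe sets Dcn was at -0.40 (adjusted p 0.307). That mean takes in a probe set below the filter (mean log2 1.28, difference -0.23). Bgn was at -0.06 with median centring (adjusted p 0.716) and at -0.03 on the deposited scaling (adjusted p 0.751), both without a call. Group means were 10.23, 10.36, 10.29 and 10.38, then 9.68, 9.92, 9.84 and 9.58 for Dcn. They were 7.16, 6.88, 6.82 and 6.73, then 5.74, 6.50, 6.70 and 6.35 for Lum. Those of Bgn were 11.88, 11.82, 11.79 and 11.68, then 11.57, 11.61, 11.47 and 11.51. Ogn, osteoglycin, was the steadiest member (residual SD 0.11) and sits near the top of the scale. Its means were 11.85, 11.88, 11.81 and 11.74, then 11.74, 11.70, 11.61 and 11.66, a difference of -0.14 (SE 0.04) that turned to 0.07 with median centring and 0.10 on the deposited scaling. A second probe set of Ogn (mean log2 10.41) was at -0.47 after quantile normalization.

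Among adhesive and matricellular glycoproteins, which link cells to fibres without bearing load, Postn and Spon1 passed the threshold under every alternative tried. Postn, periostin, ran from 10.29 to 11.02 (median 10.66) at 7 days and from 9.85 to 10.70 (median 10.30) at 14 days, with 18 of 19 animals below the 7-day median (log2 -0.36, SE 0.07, adjusted p 0.000624). Spon1, spondin 1, ran from 9.76 to 10.34 (median 10.19) and then from 8.77 to 10.23 (median 9.57), with 12 of 19 animals below the lowest 7-day animal (log2 -0.52, SE 0.10, adjusted p 0.00103). In both genes the times overlapped, and the 14-day values reached further down than the 7-day values reached up. Group means were 10.74, 10.64, 10.67 and 10.53, then 10.36, 10.25, 10.18 and 10.35 for Postn, and 10.08, 10.12, 10.15 and 10.17, then 9.61, 9.70, 9.63 and 9.51 for Spon1. Sparc, a collagen-binding protein made with it, had means of 12.22, 12.21, 12.25 and 11.94, then 11.97, 11.88, 11.78 and 11.81 (log2 -0.30, SE 0.08), and all 19 animals at 14 days lay below the 7-day median. Its call was lost under other scalings, at -0.05 with median centring (adjusted p 0.752) and at -0.02 on the deposited scaling (adjusted p 0.878). Fn1, fibronectin, had 10.41, 10.27, 10.41 and 10.37, then 10.13, 10.11, 9.95 and 10.13 (log2 -0.28, SE 0.08). A second, dimmer probe set of Fn1 was at 0.41, and the mean of its probe sets at 0.06, so the direction of Fn1 rests on the probe set chosen. Thbs1, thrombospondin 1, an activator of latent TGF-beta, was at -0.56 (SE 0.21, adjusted p 0.0605) with means of 7.76, 7.67, 7.68 and 7.57, then 6.83, 7.06, 7.50 and 7.05. Without the high-ratio arrays Thbs1 was at -0.05.

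The 3 proteases passed at 14 days and the 2 inhibitors did not, but without the high-ratio arrays Mmp2 (-0.19, adjusted p 0.264) and Adamts1 (-0.11, adjusted p 0.505) lost the call and the inhibitor Timp3 gained it (-0.28, adjusted p 0.0145). Adamts5, which cleaves aggrecan and versican, measured 7.28, 7.29, 7.19, 7.08 and 6.92 in control animals at 7 days and 6.86, 6.29, 6.67, 6.38 and 6.38 at 14 days, with no overlap. In the control diet it was 1.56-fold lower (log2 -0.64, SE 0.12, adjusted p 0.0307), but that call was lost when control replicates 1 or 2 at 7 days or 2, 3, 4 or 5 at 14 days were left out (adjusted p 0.0554 to 0.151). Over all diets it was at -0.32 (SE 0.06, adjusted p 0.000630), and at -0.30 with the mean of its probe sets, including a probe set below the filter (adjusted p 0.182). On permethrin 5000 ppm it measured 7.14, 7.02, 7.25, 6.82 and 7.13, then 6.99, 7.05, 6.82, 6.70 and 6.85. Permethrin 10000 ppm gave 7.00, 6.79, 6.78, 6.80 and 6.72, then 7.03, 6.83, 6.69 and 6.74. Isoniazid gave 6.83, 7.04, 7.02, 7.10 and 7.30, then 6.76, 6.34, 6.62, 6.98 and 6.39. At the higher permethrin dose the times overlapped throughout, and in the isoniazid diet only partly. Against control Adamts5 was at -0.34 (SE 0.12, adjusted p 0.917) at 10000 ppm for 7 days and at 0.37 (SE 0.12, adjusted p 0.620) at 5000 ppm for 14 days.

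Mmp2, the gelatinase that cuts type IV collagen, had means of 8.45, 8.30, 8.46 and 8.28, then 7.81, 8.19, 7.94 and 7.91 (log2 -0.41, SE 0.12, adjusted p 0.0139). Adamts1, a related protease, had 8.05, 8.08, 8.15 and 8.10, then 7.75, 7.86, 7.57 and 7.85 (log2 -0.34, SE 0.12, adjusted p 0.0458). The Adamts1 call was lost in 23 of 39 cases with an animal left out. Timp3, the matrix-bound inhibitor, was at -0.26 (SE 0.09, adjusted p 0.0507), and Timp1 at -0.02 (SE 0.10).

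Lox was 1.36-fold lower at 14 days (log2 -0.44, SE 0.11, adjusted p 0.00455), from a median of 9.13 to 8.65, while Loxl1 was at 0.06 (SE 0.07, adjusted p 0.542). By diet Lox was at -0.21 in control, -0.52 at permethrin 5000 ppm, -0.03 at permethrin 10000 ppm and -1.01 with isoniazid (adjusted p 0.132). Its call over all diets was lost without the isoniazid arrays (-0.25, adjusted p 0.129) and with the mean of its probe sets (-0.21, adjusted p 0.203). That mean takes in a probe set below the filter, at 0.22, while the second probe set above the filter was at -0.40. Pdgfra, the receptor for platelet-derived growth factor that marks alveolar fibroblasts, measured 10.82, 11.12, 10.97, 11.07 and 11.02 in control at 7 days and 10.80, 10.62, 10.82, 10.05 and 10.59 at 14 days. Over all diets its values ran from 10.58 to 11.12 (median 10.89) and then from 10.04 to 10.83 (median 10.59), with all 19 animals below the 7-day median (log2 -0.33, SE 0.06, adjusted p 0.000574). Its other group means were 10.89, 10.84 and 10.79 at 7 days and 10.61, 10.52 and 10.48 at 14 days. Dimmer probe sets of Pdgfra were at 0.03 and -0.25, and the mean of its probe sets gave -0.18 (adjusted p 0.0747). Tcf21, a transcription factor of lipid-storing fibroblasts, was at 0.15 (SE 0.10, adjusted p 0.299).

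The elastic fibre genes lay closer to 0. Their 7 differences ran from -0.22 (Fbln1) to 0.15 (Mfap4), with a median of -0.15. Fbln2, which binds elastin and basement membrane, was among the most variable members, with group means of 6.90, 6.53, 7.33 and 6.45, then 6.62, 6.69, 6.76 and 6.31. Fbln5, Ltbp2 and Mfap5, which bind or organize microfibrils, were at -0.15, -0.14 and -0.16, and Eln at -0.08.

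Genes outside the list gave a mixed picture at 14 days. Of 35 other matrix proteins tested 12 were lower and 1 higher (median -0.26). The lower ones include the basement membrane linkers Nid1 (-0.37) and Nid2 (-0.62) and the laminin chain Lamc1 (-0.42), while the laminin chain Lama5 was higher (0.33). Collagen-modifying enzymes passed for 1 of 15, P3h1, with a median of 0.04, and other collagens for 1 of 11, Col4a3, with a median of -0.15. Of 20 other proteases and inhibitors 2 were lower, of 26 TGF-beta pathway genes 5 were lower and 2 higher, and of 30 fibroblast subtype markers 5 were lower and 2 higher.

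Between animals of the same group the members differed more than most genes. The median residual SD, the spread between animals after group means are removed, was 0.34 for the 39 members and 0.26 for all genes tested, and 31 of 39 exceeded the median of all genes. The largest residual SDs were those of Col15a1 (0.94), Thbs1 (0.71), Lum (0.58), Fbln2 (0.52) and Spon2 (0.49), and the smallest those of Ogn (0.11), Adamts5 (0.18) and Bgn (0.19). The low values of Thbs1 came from few animals, at 5.03 in control, 5.47 at permethrin 5000 ppm and 5.60 with isoniazid at 14 days.

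Much of that spread was shared. With group means removed, the median of r over all 741 pairs of members was 0.35 across 39 animals, and 89.1% of pairs were positive. The mean was 0.33 for the members and 0.04 for pairs of all genes. Median centring gave 0.47 against 0.26, and without the 7 arrays of high Gapdh ratio the members' mean was 0.26. The values share array, RNA quality and normalization, so r describes how these arrays vary and not a mechanism.

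**Figure D5:**
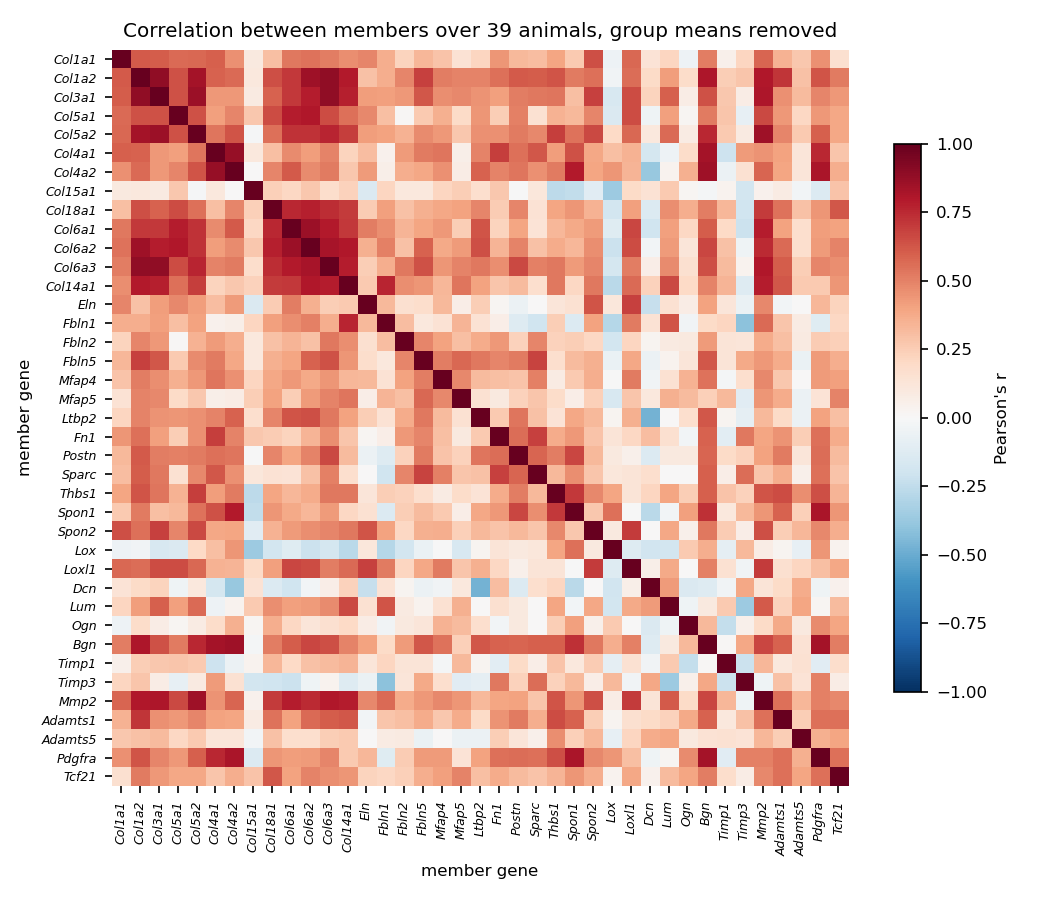
Pearson's r between members over 39 animals after group means are removed, colour from -1 (blue) to 1 (red), genes ordered by role on both axes. A block of interstitial collagens with Bgn and Mmp2 is dark red, and the rows of Lox, Dcn, Col15a1 and Timp3 are pale.

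The tightest pairs were Col1a2 with Col6a3 (0.89), Col1a2 with Col3a1 (0.89) and Col3a1 with Col6a3 (0.89), whose upstream bases are shown above, and the divergent pair Col4a1 with Col4a2 (0.87). Col1a2 had r of 0.93 with the mean of the other members, Mmp2 0.87 and Col6a3 0.87. At the other end stood Lox (-0.02), Dcn (0.09), Col15a1 (0.12) and Timp3 (0.12). Loxl1 and Spon2 varied with each other (0.70), and Spon1 with Pdgfra (0.81). The interstitial collagens, biglycan and the gelatinase were thus high or low in the same animals, and decorin and lysyl oxidase were not.

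The genes outside the list that most resembled the mean of the members over the 39 animals were Dpysl3 (r 0.87), Igf1 (0.84), Ptprm (0.83), Dkk3 (0.82), Npnt (0.81), Ubfd1 (0.81), Lman1 (0.81), Pdia6 (0.80), Ddr2 (0.80) and Ccnd2 (0.80). Ddr2 is a collagen receptor, Igf1 a growth factor, and Lman1 and Pdia6 act in the endoplasmic reticulum on secreted proteins. At 14 days Ddr2 was lower by -0.54 on the log2 scale and Igf1 by -0.49, whereas Pdia6 was at 0.04 (adjusted p 0.775).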

How the data were processed

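Per the submitters' processing notes the authors made the deposited signal, an intensity per probe set on a linear scale, with MAS5 (version: not given in the sources used here). The platform annotation gives a lone gene symbol to 34945 of 45101 probe sets, several to 932 and no symbol to 9160, apart from 64 control probe sets. Medians of the arrays lay between 17.4 and 26.2. The signal was put on the log2 scale and quantile normalized over all arrays, and a gene was tested where its probe set had a mean log2 of at least 3.43, the upper 60%. This scaling hides a shift common to most genes and squeezes the brightest probe sets together.

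Models with 8 group means over 39 arrays were fitted in R 4.3.3 with limma 3.58.1, for 16 comparisons and 3 more within diets. P-values are two-sided, with Benjamini-Hochberg adjustment over all genes of a comparison, and the fit was tested on simulated data. On arrays the number of animals limits the precision. Every group's value is given for members past the threshold in any comparison or the F-test, the 5 of smallest F-test p, the 2 of smallest p in each treatment-control comparison, and the 5 of largest and 3 of smallest residual SD. The members and lists were chosen with earlier results of these data known. Alternatives covered scaling, a pseudocount of 4, filters, probe sets, samples, a replicate block, array weights, RNA quality, other tissues and each animal left out. The clock covariate, the fits without isoniazid arrays or without the pair of arrays lowest in Spon2, and the time differences within treated diets were added after seeing the data. Replicate numbers come from the labels. Same-numbered animals of different groups had a mean correlation of 0.03 in their deviations from group means, and other pairs -0.01. A mean over all such pairs cannot exclude shared handling by number. The 7 arrays of high Gapdh ratio at 14 days all carry the number 3, 4 or 5.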

Additional observations from a re-analysis of the deposited data

Results flagged for a closer look

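For the 29 members whose group values are given and for the mean of all members, an animal is listed here where its gap to the nearest animal of its group, over the group's range, exceeded Dixon's 95% critical value. This held for 19 of 240 group values (7.92%), where chance gives about 1 in 20. All values are log2 signal.

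In the permethrin 10000 ppm group at 14 days, replicate 3 was lowest for 4 members, with Col3a1 at 9.89 (the others 11.22 to 11.36), Col5a2 at 7.96 (8.64 to 8.72), Col6a2 at 8.15 (9.35 to 9.57) and Col18a1 at 5.70 (6.75 to 6.81). The array of that replicate 3 had a Gapdh ratio of 1.29 and the lowest member mean of all arrays, 8.28. Replicate 4 of the same group was high for Sparc, at 12.20 (11.61 to 11.67). At the same dose for 7 days, replicate 3 was low for Spon2 at 5.05 (6.45 to 6.85) and Pdgfra at 10.58 (10.87 to 10.93), replicate 5 low for Ogn at 11.63 (11.83 to 11.89), and replicate 1 high for Adamts5 at 7.00 (6.72 to 6.80).

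On permethrin 5000 ppm, Fbln2 was low in replicate 3 at 7 days, at 5.48 (6.66 to 7.03), Dcn low in replicate 2 at 7 days, at 9.99 (10.40 to 10.55), and Adamts1 high in replicate 3 at 14 days, at 8.77 (7.55 to 7.71). With isoniazid for 7 days, Col3a1 was low in replicate 3, at 10.65 (11.10 to 11.24), and Spon1 in replicate 5, at 9.88 (10.21 to 10.31). With isoniazid for 14 days, Col14a1 was high in replicate 2, at 7.62 (6.95 to 7.11), and Lox low in replicate 5, at 7.88 (8.55 to 8.77). Among controls, replicate 4 at 14 days was low for Lox, at 7.91 (8.60 to 8.85), and Bgn, at 11.14 (11.61 to 11.73). Replicate 4 at 7 days was low for Loxl1, at 9.33 (9.64 to 9.76). Gapdh ratios were 1.80 for control replicate 4 and 1.87 for isoniazid replicate 5, both at 14 days. Every animal listed as low at 14 days was thus on an array of high ratio. Those listed as high at 14 days, and all listed at 7 days, were not. The part of RNA quality in these values was not tested.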

How the results depend on the processing

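Counts are of members called. Over all diets, 14 against 7 days gave 24 (18.2% of all genes called). This became 15 with median centring (8.22%), 15 without the arrays of high Gapdh ratio (15%) and 12 with that ratio as a covariate (8.65%). The share of all genes called thus moves with the setting too. For the other comparisons that share is given above for the main setting only. A changed count there cannot be read as a change in the members alone. In the control diet 1 was called at 14 against 7 days, and 0 with median centring, with the mean of all probe sets, with only the compared groups or without the high-ratio arrays, 3 with array weights and 7 with the fat score as a covariate. The F-test called 4, and 1 with median centring, 1 with the mean of probe sets, 13 with array weights, 2 without the high-ratio arrays, 2 with the Gapdh ratio, 8 with cardiac and liver scores, 10 with the fat score and 2 with the clock difference as covariates. Isoniazid for 7 days called 0, and 1 with array weights, without the high-ratio arrays, or without the pair of arrays lowest in Spon2. Without that pair 1 was called between permethrin 10000 ppm and isoniazid, in place of 0. Isoniazid over both times called 1, and 0 with the clock difference as a covariate. The log2 difference of Ogn over time turned to 0.0726 with median centring and 0.104 on the deposited scaling, and that of Fn1 to 0.0618 with the mean of its probe sets; the cause was not tested.

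The replicate block treats same-numbered animals as sets, which the labels do not state. With it isoniazid for 14 days called 1 in place of 0, and the control diet 2. The F-test then called 3 and the comparison of times over all diets 26 (19.4% of all genes). Leaving out each animal gave 0 to 1 for isoniazid at 7 days, 0 to 1 at 14 days, 0 to 1 for permethrin 10000 ppm against isoniazid, 0 to 2 for the control diet over time and 3 to 9 for the F-test, with 9 without replicate 4 of permethrin 10000 ppm at 14 days. Number of animals and brightness over background limit what dim genes such as Col15a1 can show.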
